A study of Rattus norvegicus with 4 samples.

Results

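Enzymes that make estrogens and enzymes that convert or inactivate steroids were followed in rat granulosa cells, the steroid-producing cells of the ovarian follicle. The set was a list of 10 genes: Cyp19a1, Hsd17b1, Hsd17b4, Akr1c3, Srd5a1, Sult1e1, Hsd11b1, Hsd11b2, Cyp1b1 and Cyp17a1. Every array probe set whose only annotated symbol was one of these was taken, which gave 11 probe sets for 9 genes out of 31042 probe sets on the array. Cyp19a1 had 3 probe sets and the other 8 genes had 1 each. The probe table used here pairs no probe set with Srd5a1, a steroid 5-alpha-reductase, so it was not analysed here.

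The donors were 27-day-old immature Sprague Dawley females primed for 48 h with PMSG, a gonadotropin that stimulates follicle growth. All cultures of both groups received 10 µM forskolin, which activates adenylyl cyclase and raises cAMP, and were kept for 48 h. The groups differed in the transfected siRNA, 20 nM against Runx2, a transcription factor best known from bone, or 20 nM of a negative control. Each group held 2 arrays, 1 per culture, titled replicate 1 and replicate 2. The labels do not say whether cells of several rats were pooled, and there was no culture without forskolin or without siRNA. The number of Runx2 probe sets in the probe table was 0, so the knockdown could not be checked here and the groups are taken from the sample titles.

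In the follicle, theca cells make androgens with the enzyme Cyp17a1, and granulosa cells turn these androgens into estrogens with aromatase, the product of Cyp19a1. Hsd17b1 then reduces the weak estrogen estrone to estradiol. Other enzymes act in the opposite direction: Hsd17b4 oxidises estradiol, Sult1e1 attaches sulfate to estrogens and Cyp1b1 hydroxylates them. Akr1c3 is the probe-table name of rat 20alpha-hydroxysteroid dehydrogenase, which inactivates progesterone, and Hsd11b1 and Hsd11b2 regenerate and inactivate glucocorticoids. After ovulatory stimulation granulosa cells are known to shift from estradiol to progesterone output.

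Values are MAS5 signals on a linear scale, and each array had been scaled to a trimmed mean signal of 500.1. The Runx2 siRNA replicate 2 array stood apart in its 16 spike-in control probe sets, with a geometric mean signal of 1908 against 1024 to 1200 on the other arrays. Of 10 measured granulosa markers 9 were bright enough to be tested. Among them Gja1, a gap junction protein, had signals of 15938 to 29091, and the inhibin subunits Inhba and Inha had 14488 to 20807 and 12500 to 17693. Amh, another granulosa marker, was dim on all arrays, at 30.89 to 68.0. The brightest markers of other cell types were Aldh1a1 of the theca list at 9192 to 11926, Hbb of red cells at 943.2 to 3195, Col3a1 of stroma at 719.3 to 1275, Cd14 of leukocytes at 456.1 to 955.6, Zp2 of the oocyte at 322.8 to 571.0 and Kdr of endothelium at 174.6 to 204.1. In such bulk RNA, fewer cells of a type and less RNA per cell cannot be told apart.

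Aromatase transcripts were lower with Runx2 siRNA on every array and by every probe set. The brightest Cyp19a1 probe set had signals of 856.1 (replicate 1) and 470.0 (replicate 2) after Runx2 siRNA, and of 2249 and 1185 after control siRNA. The groups did not overlap, and within each group the replicate 2 array was the lower one. Mean signal was 663.0 ± 273.0 (SD, n = 2) after Runx2 siRNA and 1717 ± 752.4 (SD, n = 2) in the controls, a ratio of 0.386. Between same-numbered arrays the ratio was 0.381 for replicate 1 and 0.397 for replicate 2. On the log2(signal + 16) scale, which understates differences of dim probe sets, the difference was -1.34 ± 0.39 (SE), with a limma adjusted p of 0.365 over all 18625 tested probe sets. The difference of 1.34 was larger than the 0.84 and 0.92 between the 2 arrays within the Runx2 siRNA and control groups, but the adjusted p did not pass 0.05.

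The other Cyp19a1 probe sets read the same gene and are not independent of the first. The middle one had 922.5 and 563.5 with Runx2 siRNA and 1939 and 1092 with control siRNA. Its log2 difference was -0.997 ± 0.344 (SE), and within pairs -1.06 and -0.94. The dimmest had 596.0 and 290.7 against 1505 and 912.5. Its log2 difference was -1.46 ± 0.39, and within pairs -1.31 and -1.60. Both Runx2 siRNA arrays thus lay under both control arrays for each of the 3 probe sets, with limma adjusted p of 0.389 and 0.353 for these 2.

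**Figure D1:**
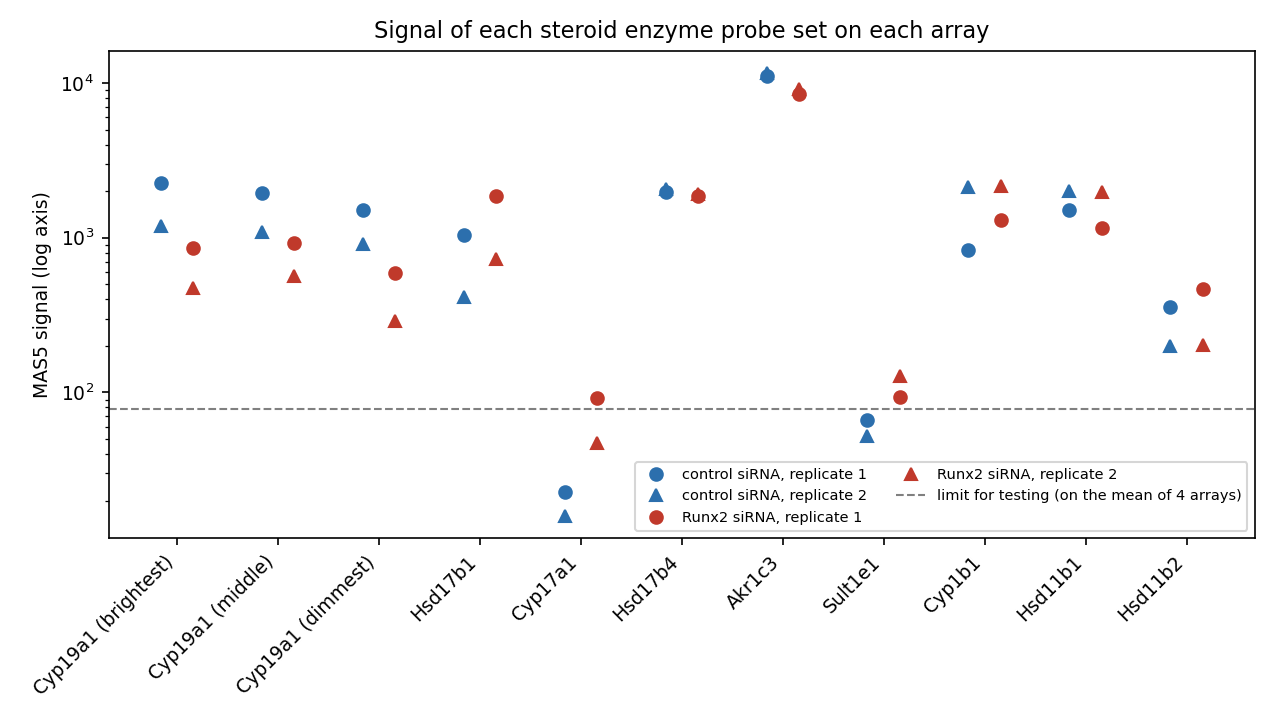
MAS5 signal (log axis) of the 11 probe sets on the 4 arrays, blue for control siRNA and red for Runx2 siRNA, circles for replicate 1 and triangles for replicate 2. The dashed line is the signal of 78.6 that the mean over the 4 arrays had to exceed for a probe set to be tested. The Cyp19a1 signals are lower and those of Cyp17a1 and Sult1e1 higher on both Runx2 siRNA arrays, and circle and triangle of a group lie far apart for Hsd17b1 and Cyp1b1.

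Hsd17b1, which acts after aromatase and makes estradiol from estrone, was higher with Runx2 siRNA within each same-numbered pair. Its signals were 1867 and 728.9 with Runx2 siRNA and 1043 and 414.6 with control siRNA. The groups overlapped, because the replicate 2 arrays lay far below the replicate 1 arrays in both. Within pairs the ratio of Runx2 siRNA to control was 1.79 for replicate 1 and 1.76 for replicate 2, or 0.83 and 0.79 on the log2 scale. The gap between replicates was wider, at log2 -1.34 with Runx2 siRNA and -1.30 with control siRNA. Over the 4 arrays the difference was 0.81 ± 0.58 (SE), with a limma adjusted p of 0.569, and was smaller than the gap between replicates. Hsd17b1 and Cyp19a1, successive enzymes of estradiol synthesis, were thus on opposite sides of 0 in both pairs, and the contrast between them was not tested.

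Hsd17b4, a peroxisomal enzyme that oxidises estradiol and also shortens fatty acids, was nearly level. Its signals were 1870 and 1922 with Runx2 siRNA and 1990 and 2052 with control siRNA. The Runx2 siRNA arrays were the lower ones, without overlap, by a log2 difference of -0.09 ± 0.09 (SE; limma adjusted p = 0.683).

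Cyp17a1, the androgen-making enzyme of theca cells, was dim and was higher with Runx2 siRNA. Its signals were 91.68 and 47.16 with Runx2 siRNA and 22.74 and 15.98 with control siRNA. The groups did not overlap, and the ratio within pairs was 4.03 for replicate 1 and 2.95 for replicate 2. The mean over the 4 arrays lay below 78.6, so Cyp17a1 was left out of the test, and MAS5 signals this low are variable. Without that filter the log2 difference was 1.23 ± 0.36 (SE), with a limma adjusted p of 0.444. With constants of 1 and 64 in place of 16 it was 1.73 and 0.66. The theca list does not hold Cyp17a1, and 8 of its genes were measured, each taken by its brightest probe set. With Runx2 siRNA 3 were higher without overlap and none was lower, though a dimmer Nr2f2 probe set was lower without overlap. Of all tested probe sets 28.8% were higher without overlap. The shares are unlike, since only 3 of the 8 genes were bright enough for the test, among the higher ones only Acta2. The others of the list overlapped between groups, and the same-numbered pairs of each differed in sign. On the log2 scale Tcf21 lay at -0.71, Aldh1a1 at -0.18, Gli1 at -0.004, Nr2f2 at 0.002 and Hhip at 0.37. The value of Tcf21 came from pairs at 0.62 and -2.04, with a signal of 4.787 on the Runx2 siRNA replicate 2 array. The summed signal of the 8 genes was 16539 and 13986 with Runx2 siRNA and 15911 and 16971 with control siRNA. It came mostly from Aldh1a1, at 9192 to 11926, and Nr2f2, at 3711 to 4536. Insl3, a theca hormone picked from that list after its values were seen, was dim at 72.17 and 74.43 against 51.07 and 54.42, without overlap. The part of theca cells in the Cyp17a1 values was not tested.

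Start-site sequences are shown for the genes of progesterone inactivation and estrogen sulfation, Akr1c3 and Sult1e1, as examples of a bright member that was lower and a dim one that was higher on both Runx2 siRNA arrays. They were read from the RefSeq promoter table, which is of build GRCr8 and held 5 of the 10 genes. Both sequences run from 250 bases before to 50 bases after the annotated start, on the + strand, Akr1c3 at chr17:71020634-71020933 and Sult1e1 at chr14:20701230-20701529. Capitals mark matches, on either strand, to any of 5 short motifs: the Runx core TGTGGT, the Nr5a half-site AGGTCA, the cAMP element half-site TGACG, the Gata site AGATAA and the TATA box TATAAA.
Akr1c3: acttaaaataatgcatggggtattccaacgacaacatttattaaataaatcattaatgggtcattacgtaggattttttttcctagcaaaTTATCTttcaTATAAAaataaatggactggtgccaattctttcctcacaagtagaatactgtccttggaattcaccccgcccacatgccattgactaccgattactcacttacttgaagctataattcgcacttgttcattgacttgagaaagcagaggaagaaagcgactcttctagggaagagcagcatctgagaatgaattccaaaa
Sult1e1: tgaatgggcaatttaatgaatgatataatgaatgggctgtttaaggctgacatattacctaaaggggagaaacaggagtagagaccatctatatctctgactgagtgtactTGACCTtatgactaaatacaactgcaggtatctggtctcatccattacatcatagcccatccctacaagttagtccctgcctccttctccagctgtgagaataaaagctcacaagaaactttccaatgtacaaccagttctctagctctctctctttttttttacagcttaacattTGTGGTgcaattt

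In the Sult1e1 window the Runx core letters began at base 288, after the start site, and the reverse complement of the Nr5a half-site began at base 112, counted from 1 at the left end. The Akr1c3 window held the reverse complement of the Gata letters at base 91 and the TATA letters at base 101, and no Runx core letters. Of 33469 windows of this length, 17.3% held the Runx core, 16.2% the Nr5a half-site, 21.2% the cAMP half-site, 11.6% the Gata letters and 14.2% the TATA letters. Within these 2 windows the marked matches do not overlap one another. A match describes letters only, and binding was not measured.

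Akr1c3 was among the brightest probe sets, with signals of 8483 and 9189 with Runx2 siRNA and 11137 and 11625 with control siRNA. Both Runx2 siRNA arrays lay under both control arrays, and the replicates were close to each other. The ratio within pairs was 0.762 for replicate 1 and 0.791 for replicate 2. The log2 difference of -0.37 ± 0.11 (SE) was larger than the 0.11 and 0.06 between replicates, with a limma adjusted p of 0.370. The AKR1C genes are similar in sequence, and cross-hybridisation between them was not tested.

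Sult1e1 was dim, with signals of 93.15 and 127.5 with Runx2 siRNA and 66.74 and 52.27 with control siRNA. Both Runx2 siRNA arrays lay above both control arrays. The ratio was 1.40 in the replicate 1 pair and 2.44 in the replicate 2 pair, which includes the array that stood apart. The log2 difference was 0.74 ± 0.26 (SE; limma adjusted p = 0.394), and it was 0.87 with a constant of 1 and 0.49 with a constant of 64 in place of 16. The control signals lay under the limit of 78.6, and the probe set was tested only because the Runx2 siRNA arrays raised its mean over all arrays.

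The remaining 3 genes overlapped between groups. Cyp1b1, which makes catechol estrogens, had 1293 and 2169 with Runx2 siRNA and 830.7 and 2117 with control siRNA. Only the replicate 1 pair stood apart, with a ratio of 1.56 against 1.02 in the other, and the log2 difference was 0.33 ± 0.48 (SE; limma adjusted p = 0.772). Hsd11b1, which regenerates active glucocorticoid, had 1161 and 1961 against 1516 and 2015, a difference of -0.21 ± 0.28 (limma adjusted p = 0.750). Hsd11b2, which inactivates glucocorticoid, had 466.0 and 202.8 against 354.7 and 199.4, a difference of 0.20 ± 0.45 (limma adjusted p = 0.855). For all 3 the difference between groups was smaller than that between replicates. The direction of each changed when a single array was left out.

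**Figure D2:**
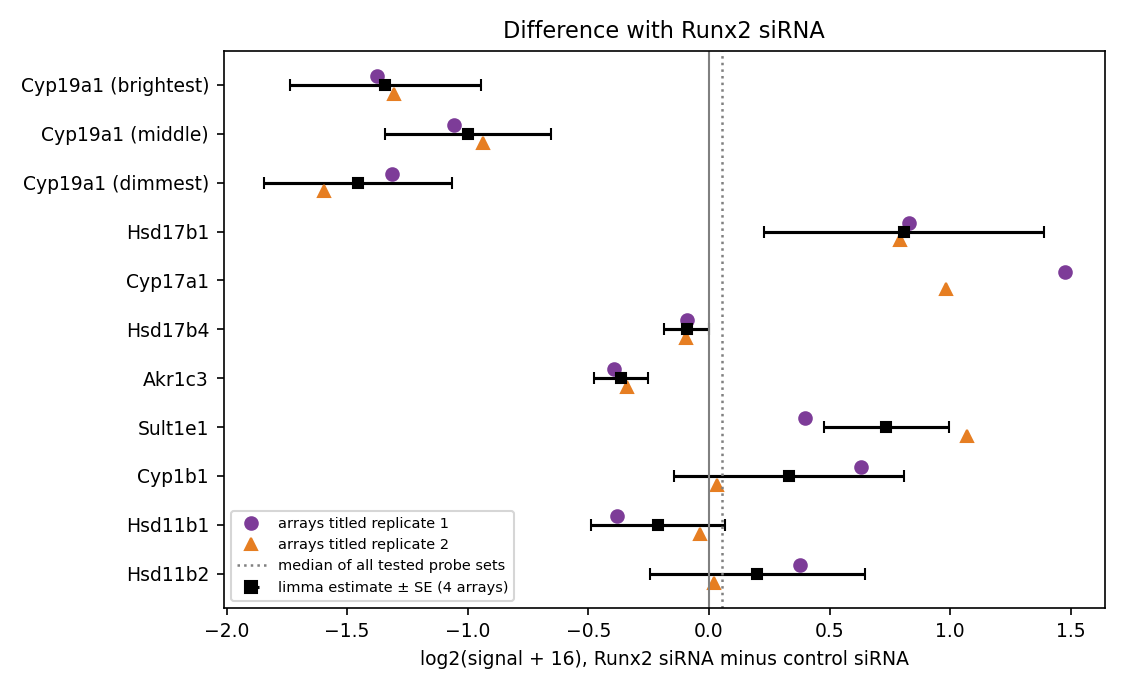
Difference in log2(signal + 16), Runx2 siRNA minus control siRNA, for the arrays titled replicate 1 (circles), those titled replicate 2 (triangles) and, for the 10 tested probe sets, the limma estimate over 4 arrays with its SE (squares). Both pairs lie near -1 or below for Cyp19a1 and near 0.8 for Hsd17b1, whereas the SE of Hsd17b1 is wide because its replicates differ; the dotted line is the median of all tested probe sets, 0.05.

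By limma 0 of the 10 tested member probe sets passed an adjusted p of 0.05, as did 0% of all tested probe sets. At an unadjusted p under 0.05, 4 were lower, the 3 of Cyp19a1 and that of Akr1c3, where 5.49% of all tested probe sets were lower, and 1 was higher, where 6.45% were. That one was Sult1e1, which entered the test only through the group in which it is high, so its place in these counts supports nothing. Without the control siRNA replicate 1 array the 5 became 3. Without overlap between groups 5 were lower and 1 was higher, against 18.5% and 28.8% of all tested. Differences past 0.5 on the log2 scale in both same-numbered pairs were found downward for the 3 Cyp19a1 probe sets and upward for Hsd17b1, against 2.85% and 3% of all tested. Of the 8 tested genes, each by its brightest probe set, 4 were higher and 4 lower. Over all 18625 tested probe sets 10825 were higher and 7800 lower. The median of the 8 genes was 0.06 against 0.05 over all tested probe sets. The median of the genes thus lay at that of the array, while single members lay on both sides. The members were chosen with earlier results of these data known, so these counts are a description.

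Several of these enzymes also differed between the arrays titled replicate 1 and replicate 2, in the same direction in both siRNA groups. The replicate 2 array was lower by more than 0.5 on the log2 scale in both siRNA groups for 5 of the 10 probe sets, the 3 of Cyp19a1, Hsd17b1 and Hsd11b2, where 1.63% of all tested were. It was higher by as much in both for 1, Cyp1b1, where 2.99% were. Hsd11b2 differed by -1.14 with Runx2 siRNA and -0.78 with control siRNA, and Cyp1b1 by 0.74 and 1.33. Hsd11b1 differed by 0.75 and 0.41. The paired glucocorticoid enzymes therefore lay on opposite sides between replicates, Hsd11b1 higher and Hsd11b2 lower on both replicate 2 arrays. Hsd17b4 and Akr1c3 differed by 0.04 and 0.04, and by 0.11 and 0.06. The summed signals of some marker lists of other cells also moved with the replicate number. The stroma sum was 1499 and 1322 on the replicate 1 arrays and 2123 and 2357 on the replicate 2 arrays. The leukocyte sum was 1099 and 840.8 against 1746 and 1435, Runx2 siRNA first in each case. The summed signal of the 2 red cell genes went the other way, with 3435 and 3040 on the replicate 1 arrays and 2005 and 1143 on the replicate 2 arrays. The theca and endothelial sums moved in opposite directions in the siRNA groups. The endothelial sum went from 399.8 to 362.8 with Runx2 siRNA and from 307 to 366.6 with control siRNA. Single genes did not all follow the sum of their list. The part of other cells in these replicate differences was not tested.

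**Figure D3:**
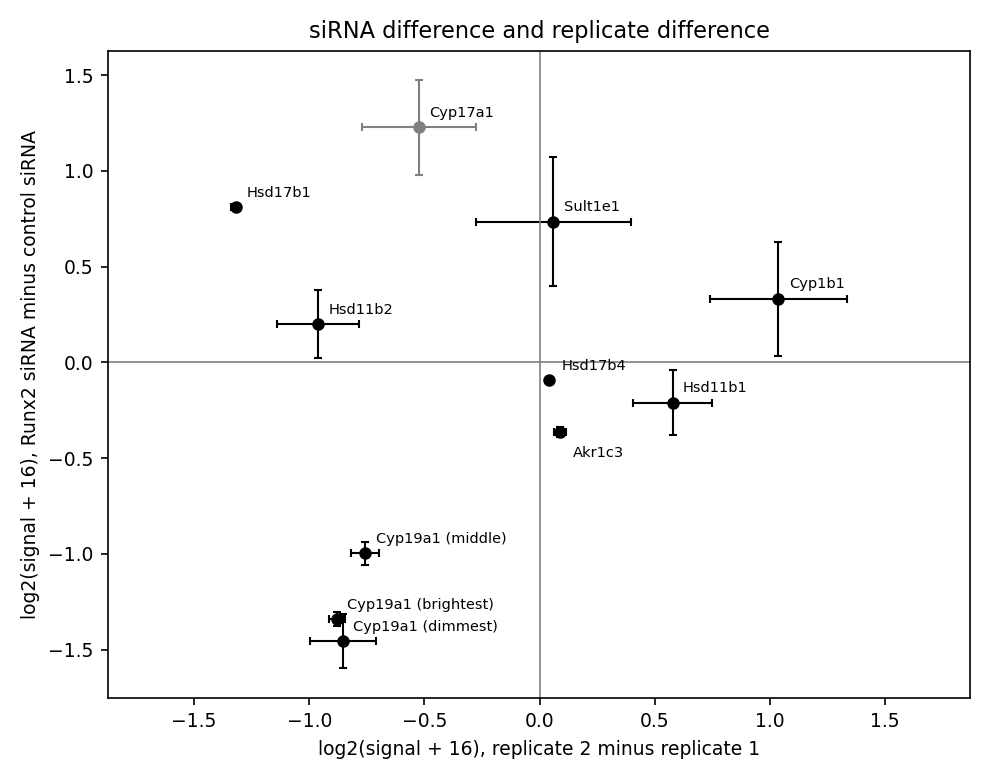
For each probe set, the mean difference between replicate 2 and replicate 1 (x axis) and between Runx2 siRNA and control siRNA (y axis), both in log2(signal + 16). Bars run between the values of the 2 groups or of the 2 pairs, and Cyp17a1 (grey) was not tested. Cyp19a1 and Hsd17b1 both lie to the left, with replicate 2 lower, but Cyp19a1 lies under 0 and Hsd17b1 above it on the siRNA axis.

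Other enzymes and redox partners of steroid synthesis and turnover that were bright enough to be tested were mostly lower with Runx2 siRNA. Of 62 listed genes 45 had a probe set and 26 were tested, each by its brightest. Of these 19 were lower and 7 higher, where 7800 of all 18625 tested probe sets were lower and 10825 higher. The median log2 difference of the list was -0.19 against 0.05 over all tested probe sets. Unadjusted limma p was under 0.05 for 2, both lower, where 5.49% of all tested probe sets were lower at that p, and 0 passed after adjustment. In a fit without the filter on dim probe sets, 22 of 45 were lower and the median was 0.01, against 0.10 over all probe sets. Hsd17b11, which oxidises androgens at carbon 17, had signals of 2399 and 2228 with Runx2 siRNA and 3917 and 3602 with control siRNA. Its groups did not overlap, and the log2 difference was -0.70 ± 0.11 (SE; limma adjusted p = 0.278). Gsta1, a glutathione transferase, differed by -0.34 ± 0.12 (limma adjusted p = 0.403). Hsd17b7, which converts estrone to estradiol and also acts in cholesterol synthesis, had 4565 and 1563 against 8333 and 5146, a difference of -1.29 ± 0.53 (limma adjusted p = 0.423). Akr1c15 differed by -1.26 ± 0.65 with overlap. Papss2, which makes the sulfate donor used by Sult1e1, differed by -0.67 ± 0.34 with overlap, from -1.34 in the replicate 1 pair and 0.009 in the replicate 2 pair. A dimmer Papss2 probe set, tested only through its control signals, differed by -0.79 ± 0.22. Akr1d1, a steroid 5-beta-reductase, differed by 0.63 ± 0.48, with a signal of 202.0 on the Runx2 siRNA replicate 2 array against 66.56 to 75.54 on the others. The signals on those other arrays lay under the limit of 78.6, so Akr1d1 entered the test only through the Runx2 siRNA replicate 2 array. Its pairs differed in sign, at -0.15 for replicate 1 and 1.40 for replicate 2. The place of Akr1d1 among the 7 higher genes therefore supports nothing.

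Of 10 genes on the list of steroid receptors and binding proteins 9 had a probe set and 5 were tested, 3 higher and 2 lower. After quantile or cyclic loess scaling the count was 2 higher and 3 lower. Over all 18625 tested probe sets, without such scaling, 10825 were higher and 7800 lower. Esr2, the main estrogen receptor of granulosa cells, had signals of 129.4 and 99.09 with Runx2 siRNA and 64.37 and 62.95 with control siRNA. The groups did not overlap, and the log2 difference was 0.70 ± 0.24 (SE; limma adjusted p = 0.388). The control signals lay under 78.6, so Esr2 entered the test only through the group in which it is high. Its place among the 3 higher genes therefore supports nothing. The glucocorticoid receptor Nr3c1 differed by -0.23 ± 0.12, with a dimmer probe set at -0.01, and the mineralocorticoid receptor Nr3c2 by 0.10 ± 0.24. The membrane progesterone receptor components Pgrmc2 and Pgrmc1 differed by 0.20 ± 0.10 and -0.09 ± 0.10.

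Factors known to act on aromatase transcription in granulosa cells were 15 higher and 4 lower among 19 tested of 22 listed. Of all 18625 tested probe sets 10825 were higher and 7800 lower. The median log2 difference of the list was 0.30, against 0.05 over all tested probe sets. Unadjusted limma p was under 0.05 for 8 of the higher and 3 of the lower genes, against 6.45% and 5.49% of all tested probe sets, and 0 passed after adjustment. The list was chosen with earlier results of these data known, so these counts are a description. Without the control siRNA replicate 1 array the 8 became 2, and without the control siRNA replicate 2 array 3. The lower ones were Wnt4, a signalling ligand, at -0.98 ± 0.13 (SE), Cebpb, a cAMP-induced factor of luteinization, at -0.70 ± 0.19, the growth factor receptor Igf1r at -0.64 ± 0.12, and the orphan receptor Nr4a1 at -0.57 ± 0.28 with overlap. Cebpb had signals of 1426 and 1800 with Runx2 siRNA and 2262 and 3037 with control siRNA. The higher ones included Igf1 at 0.81 ± 0.10, Runx1 at 0.79 ± 0.27, Smad3, a mediator of activin signals, at 0.48 ± 0.10, Cebpa at 0.48 ± 0.16, Gata6 at 0.40 ± 0.14, Nr0b1, a repressor of steroid synthesis, at 0.41 ± 0.25, the activin subunit Inhba at 0.36 ± 0.14 and Foxo1 at 0.35 ± 0.14. The control signals of Nr0b1, 72.78 and 60.49, lay under 78.6. Only the Runx2 siRNA arrays, at 106.2 and 81.79, brought it into the test, so its place among the 15 supports nothing. Smad3 had 2202 and 2078 against 1590 and 1469, and its dimmer probe set differed by 0.20 ± 0.19. Cebpa had 4 tested probe sets, at 0.33 to 0.73. Dimmer tested probe sets of Inhba and Foxo1 differed by 0.21 ± 0.41 and 0.20 ± 0.20, both with overlap. Those of Igf1, at 0.77 ± 0.17 and 0.70 ± 0.24, and of Runx1, at 1.11 ± 0.24, were higher without overlap. So was that of Gata6, at 0.62 ± 0.23, tested only through its Runx2 siRNA signals. Within pairs the brightest Runx1 probe set differed by 1.27 and 0.30. Chosen after their values were seen, Foxl2, a factor of granulosa identity, differed by 0.30 ± 0.10 and Nr5a1 and Nr5a2, nuclear receptors that bind steroidogenic promoters, by 0.09 ± 0.25 and 0.30 ± 0.16. A dimmer Nr5a1 probe set lay on the other side, at -0.32 ± 0.20 without overlap, and the dimmer ones of Nr5a2 at 0.25 ± 0.16 and -0.04 ± 0.18. The list holds factors of unlike action, among them the repressor Nr0b1. Their part in the Cyp19a1 values was not tested.

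**Figure D4:**
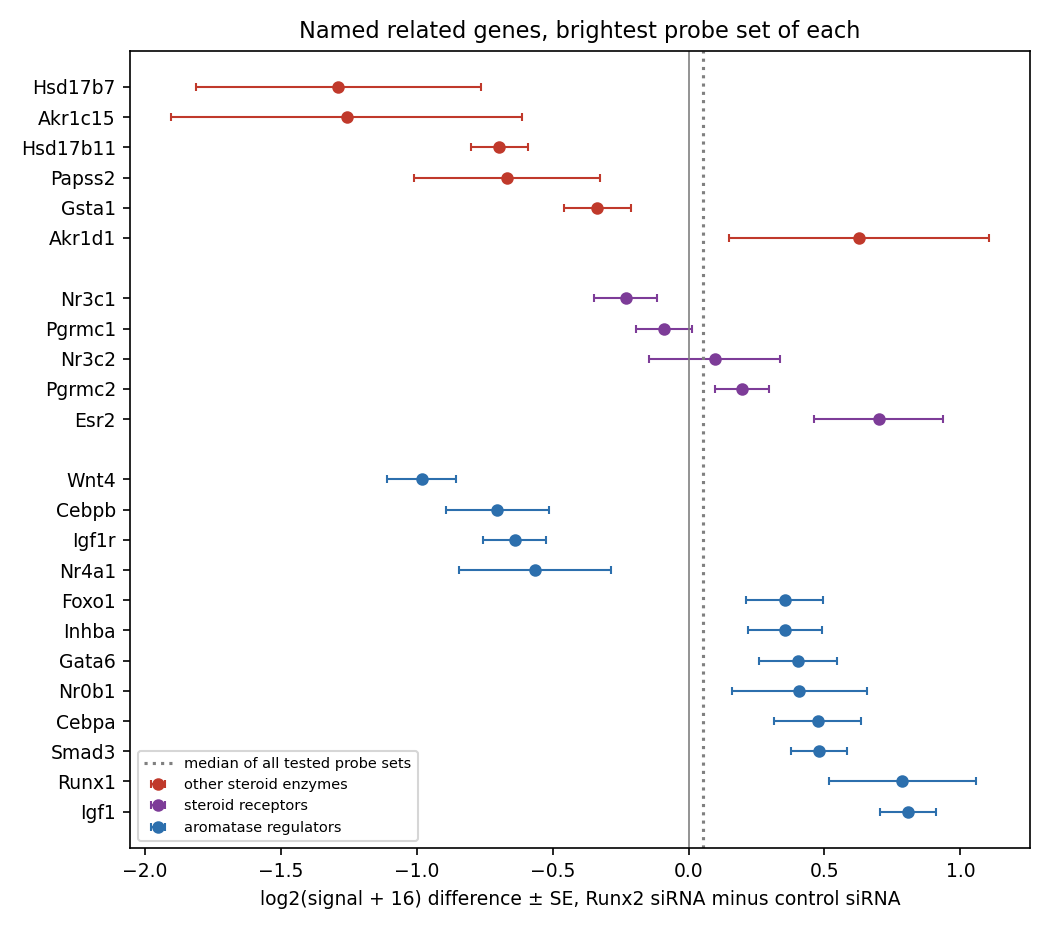
Difference in log2(signal + 16), Runx2 siRNA minus control siRNA, with the SE of limma, for the named genes of the lists of other steroid enzymes (red), steroid receptors (purple) and aromatase regulators (blue), each by its brightest probe set. The dotted line is the median of all tested probe sets, 0.05. Hsd17b7 and Akr1c15 lie lowest and Igf1 and Runx1 highest.

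The genes whose pattern over the 4 arrays lay nearest to the brightest Cyp19a1 probe set, by Euclidean distance between mean-centred log2(signal + 16) profiles, were Fgl2, Hsd17b7, Onecut2, Xpnpep2 and Vav3, at distances of 0.110 to 0.198. The other Cyp19a1 probe sets came at places 8 and 24 among all other tested probe sets, at 0.213 and 0.366. Fgl2, a secreted fibrinogen-like protein, had signals of 1264 and 764.4 with Runx2 siRNA and 3287 and 1810 with control siRNA. Hsd17b7 is represented here by its dimmer probe set, at 795.4 and 390.5 against 1891 and 981.1, a log2 difference of -1.26 ± 0.43 (SE). Its ratio within pairs was 0.421 and 0.398, beside 0.381 and 0.397 for Cyp19a1. Vav3, a guanine nucleotide exchange factor, had 170.9 and 101.6 against 509.0 and 295.1. Onecut2, a transcription factor, had 148.2 and 78.37 against 433.0 and 192.2. Xpnpep2, an aminopeptidase, had 80.03 and 31.90 against 222.4 and 98.81. All 5 were lower with Runx2 siRNA without overlap and lower on the replicate 2 array of each group. That shared pattern follows from the selection, since they were picked for likeness to Cyp19a1 on the same 4 arrays. The mean signal of Xpnpep2 with Runx2 siRNA, 55.96, lay under the limit of 78.6, so it was tested only through its control signals. The likeness rests on 4 arrays and is a description.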

How the data were processed

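Biotin-labelled RNA of 4 granulosa cell cultures was hybridised to 1-colour arrays, 1 per culture. The authors deposited intensity values, linear MAS5 signals per the submitters' processing notes, which give no version. Scaling of every array to a common trimmed mean (2% off each end), seen in the values, conceals any change in the total RNA of a cell. Mismatch subtraction in MAS5 makes dim probe sets variable.

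After 57 array controls were left out, 20826 of 31042 probe sets had 1 symbol in the probe table, 436 several and 9780 none. Gene identifiers of 8 members matched the current RefSeq table (GRCr8), and Sult1e1 matched by accession only. Signals were taken as log2(signal + 16), the lowest 40% by mean signal were left out (limit 78.6), and limma 3.58.1 in R 4.3.3 (lmFit, eBayes with an intensity trend, two-sided) compared 2 arrays with 2, with no term for replicate number. P-values were adjusted by Benjamini-Hochberg over 18625 probe sets, with a threshold of 0.05. The fit was tested on simulated data with independently drawn arrays. These held no shared difference by replicate number, so they do not cover the one seen here. The 12 alternatives are given in the closing section. All members are named, and from each related list up to 8 genes with non-overlapping groups and an unadjusted p under 0.05, then up to 4 others with the largest differences. Members, lists and rules were chosen with earlier results of these data known. Columns not tied to a sample numbered 0.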

Additional observations from a re-analysis of the deposited data

How the results depend on the processing

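The 3 Cyp19a1 probe sets, Hsd17b1, Hsd17b4, Akr1c3 and Sult1e1 kept their direction under all 12 alternatives: constants of 1 and 64, quantile and cyclic loess scaling, no filter and a filter of the lowest 20%, limma without a trend, a term for replicate number, and each array left out. The brightest Cyp19a1 probe set lay at -1.36 to -1.28 under the others and at -1.80 to -0.88 with an array left out, where the lone array of a group is assumed to vary like the others. Hsd17b1 moved further, to 0.14 and 0.16 without the first Runx2 siRNA or second control array and to 1.48 and 1.46 without the second Runx2 siRNA or first control array, against 0.81 over all arrays. With the replicate number as a block, a pairing the labels do not state, limma called 4 member probe sets (3 of Cyp19a1 lower and Hsd17b1 higher; 8.12% of all tested were called), with Cyp19a1 at -1.34 (adjusted p = 0.000353) and Hsd17b1 at 0.81 (adjusted p = 0.00235). That fit also called 3 other steroid enzymes, all lower, and 5 aromatase regulators higher and 4 lower. Across probe sets, deviations from the group means correlated at 0.548 between arrays of the same number. Under every other alternative 0 were called. The count at an unadjusted p under 0.05 was 3 to 5 with an array left out. With an array left out Hsd11b1 ranged from -0.58 to 0.16, Hsd11b2 from -0.37 to 0.77 and Cyp1b1 from -0.34 to 1.00; the reversals were 0.16 for Hsd11b1 and -0.37 for Hsd11b2 without the first Runx2 siRNA array, -0.19 for Hsd11b2 without the second control array, and -0.04 and -0.34 for Cyp1b1 without the second Runx2 siRNA and the first control array. Each such fit also holds part of the difference between replicate numbers. With 2 arrays a group, a lack of calls does not show that levels were equal.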

Other observations

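Among relatives of the progesterone-inactivating enzyme, chosen after their values were seen, Akr1c14, a 3-alpha-hydroxysteroid dehydrogenase, overlapped between siRNA groups and was higher on the replicate 2 array of each. Its brightest probe set had signals of 7340 and 9808 with Runx2 siRNA and 5989 and 8444 with control siRNA, a log2 difference of 0.25 ± 0.22 (SE, limma). Akr1c19 had 813.9 and 701.3 against 902.4 and 974.3. Akr1c15 had 73.77 and 157.5 against 143.9 and 540.6, so the replicate 2 array was the higher one in both groups. Hsd3b1, which makes progesterone, had 15292 on the first Runx2 siRNA array and 13264 and 15353 on the control arrays but 26312 on the second Runx2 siRNA array, which also stood apart in its spike-in signals.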
